A study of Canis lupus familiaris with 20 samples.

Results

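CRYM encodes mu-crystallin, and on the dog array used here it was measured by 2 of 43603 distinct probes. These are all the probes whose gene name is CRYM or whose description names crystallin mu. The gene was chosen by its measured signal on these arrays, taken here as its pattern by genotype, so its levels by genotype are given as a description with no test. Which values chose it is not recorded, and p-values printed for its CNTF changes hold only if those changes did not. Mu-crystallin is a cytosolic protein that binds the thyroid hormone T3 in the presence of NADPH, and it also acts as a ketimine reductase in lysine metabolism. It was first known as a lens crystallin of marsupials, and mutations of the human gene cause deafness. In the retina, T3 acts through nuclear receptors, which pair with retinoid X receptors, and the receptor encoded by THRB sets which opsin a cone makes.

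Both CRYM probes lie on chromosome 6, on the plus strand, in the dog build canFam2. The upstream probe covers chr6:27231767-27231826 and the downstream probe chr6:27231793-27231852. Each is 60 bases long with 36.7% GC, they share the 34 bases chr6:27231793-27231826, and each has 26 bases of its own. The bases particular to each probe are shown because they are what separates the measurements, with no letters capitalised:
upstream probe: ttgtgtgtgtagttggaaagcaaaac
downstream probe: gcaaatgtcctttccctatatttcac
No other probe on the array shared a run of 20 bases with either of them. The files place the probes in the genome but do not say which exon or untranslated part they cover. In the dog assembly UU_Cfam_GSD_1.0, CRYM (gene 479818) lies on chromosome 6 and CNGB3 on chromosome 29.

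The retinas came from 10 dogs of a research colony with a shared genetic background, 5 mutant dogs that were CNGB3m/m for the D262N missense mutation and 5 normal dogs, of which 4 were CNGB3+/m and 1, dog 3, was CNGB3+/+. CNGB3 encodes a subunit of the ion channel that cones use in phototransduction, and its loss causes achromatopsia. Each dog received 12 µg of CNTF (ciliary neurotrophic factor, a relative of interleukin 6) into the vitreous of the right eye and phosphate-buffered saline (PBS) into that of the left, and retinas were collected after 1 week. Each eye was hybridised to its own single-colour array, 20 arrays in 4 groups of 5: CNTF mutant, PBS mutant, CNTF normal and PBS normal. The sample labels give ages of 10.7 to 11.5 weeks for mutant dogs and 8.9 weeks for normal dogs, while the study's design text gives about 11 months for all. The mutant dogs were 3 females (dogs 2, 3 and 5) and 2 males (dogs 1 and 4), and every normal dog was male, so genotype, labelled age and in part sex cannot be told apart. Both eyes of a dog share its genome, and the dog is the replicate.

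As a check of the labelled tissue, 6 of 6 measured rod markers were above background on every array, and 5 of 6 markers of the retinal pigment epithelium were as well. The arrays lay on 5 slides of 4, and no slide held CNTF and PBS eyes of the same genotype. The count of calls between genotypes in PBS eyes depended on normal dog 1. With all arrays 8 of 29433 probes were called (0.0102% higher and 0.017% lower in mutant dogs), and without that dog 6308 were. The number with an unadjusted limma p under 0.05 moved less, from 10188 to 12620. Levels are log2 signal relative to the 75th percentile of the array, so 0 is the level of the probe at that percentile, and in whole retina fewer cells of a type and less RNA per cell cannot be told apart.

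The level of CRYM differed widely between dogs, and by up to 1.59 between the eyes of a dog on the downstream probe. In mutant dogs 1 to 5 the downstream probe read -2.66, -2.79, -3.30, -2.56 and 1.23 in CNTF eyes and -2.98, -2.29, -3.17, -3.44 and 0.84 in PBS eyes. In normal dogs 1 to 5 it read 3.89, 1.06, 3.55, 3.46 and 3.61 in CNTF eyes and 2.99, 0.46, 1.96, 2.23 and 2.06 in PBS eyes. Mutant dogs 1 to 4 lay far below all other dogs in both eyes, while mutant dog 5 lay above normal dog 2 in both eyes, so the genotypes overlapped. As processed signal, the downstream probe ran from 40.0 to 1235 intensity units in mutant eyes and from 715 to 7155 in normal eyes. Both probes were well above background and below saturation on all 20 arrays. The signal of mutant dogs 1 to 4 was nevertheless dim, since the downstream probe read 40.0 to 79.6 there and the dimmest signal scored above background on an array was 15.4 to 44.6.

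**Figure D1:**
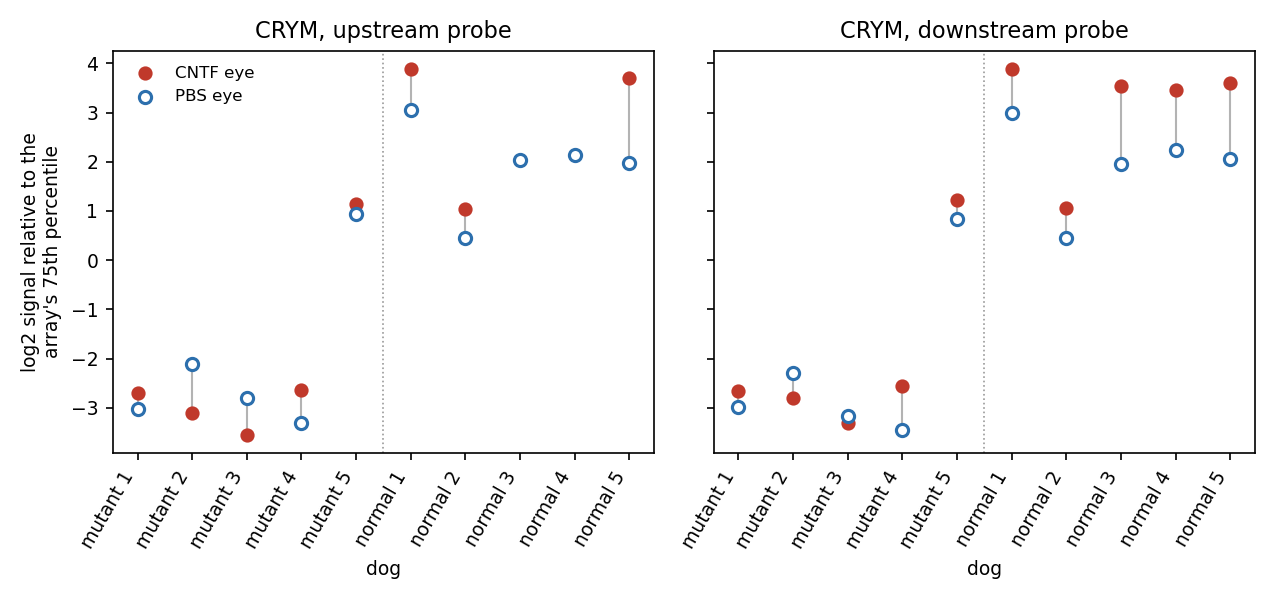
Log2 signal of the upstream (left) and downstream (right) CRYM probe relative to each array's 75th percentile, for the CNTF eye (filled) and PBS eye (open) of 5 mutant and 5 normal dogs; grey lines join the eyes of a dog, and the upstream probe has no CNTF value for normal dogs 3 and 4. Mutant dog 5 lies at 1.23 and 0.84 on the downstream probe, beside normal dog 2 at 1.06 and 0.46, and apart from the other mutant dogs.

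Ordered by the mean of both eyes, the dogs fell at -3.23 (mutant 3), -3.00 (mutant 4), -2.82 (mutant 1), -2.54 (mutant 2), 0.76 (normal 2), 1.03 (mutant 5), 2.75 (normal 3), 2.83 (normal 5), 2.85 (normal 4) and 3.44 (normal 1). The widest step was 3.30, between mutant 2 and normal 2, and the next was 1.72, between mutant 5 and normal 3. The gap of 0.59 below normal 1 also exceeded the spread between eyes, an SD of 0.38 in mutant dogs and 0.30 in normal dogs once the mean CNTF change was removed. The other neighbours in the order differed by no more than that. Neither dog in the middle of the range had the CNGB3+/+ genotype, and normal dog 3, which had it, read 3.55 in the CNTF eye and 1.96 in the PBS eye, among the other normal dogs.

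The SD of the 5 dog means was 1.78 among mutant dogs and 1.02 among normal dogs, 4.73 and 3.40 times the SD between eyes. That SD between eyes leaves out the mean CNTF change, which was 1.17 in normal dogs. Over the 27888 probes measured on all arrays the median SD of dog means was 0.28 for mutant and 0.18 for normal dogs. A spread at least as large as that of CRYM, CRYM included, was found for 42 probes (0.151%) in mutant dogs and for 45 probes (0.161%) in normal dogs. It was found in both genotypes for 7 probes. The dog levels enter the pattern taken to have chosen the gene, so these ranks are a description. Most of the spread among mutant dogs came from dog 5, at 1.03 against -3.23 to -2.54 in mutant dogs 1 to 4.

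**Figure D2:**
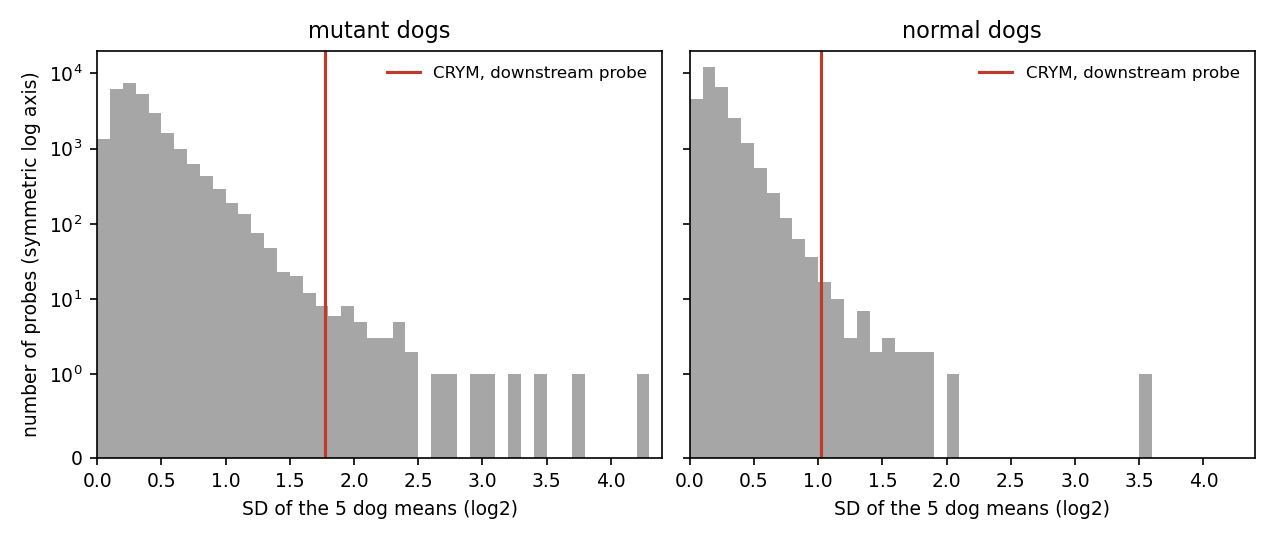
Number of probes, on a symmetric log axis, by the SD of the 5 dog means (both eyes averaged, log2 scale) among mutant dogs (left) and normal dogs (right), for 27888 probes; the red line marks the downstream CRYM probe. CRYM lies at 1.78 in mutant and 1.02 in normal dogs, against medians of 0.28 and 0.18, given as a description.

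Both probes gave nearly the same reading on every array where both were measured. The upstream minus downstream difference ran from -0.32 to 0.37, with a median of -0.02 and an SD of 0.15 over 18 arrays, while the level itself had an SD of 2.68 on the upstream and 2.67 on the downstream probe. The upstream spots of CNTF normal dogs 3 and 4 were marked as outliers by the scanner software and left out. The probes differed most in eyes of mutant dogs 2 and 3, where the signal was dim: the difference was -0.32 and -0.25 in their CNTF eyes and 0.17 and 0.37 in their PBS eyes. In mutant dog 5 it was -0.09 in the CNTF eye and 0.10 in the PBS eye, and in normal dog 2 it was -0.02 in each. On average it was -0.15 in CNTF mutant and 0.15 in PBS mutant eyes, against 0.02 in CNTF normal and -0.01 in PBS normal eyes. The mean CNTF change in mutant dogs thus differed in sign between the probes. No eye thus read differently by more than 0.37 on probes that differ in 26 of their bases. The 34 shared bases are in both readings, and whether a base change under them lowers both probes in some dogs, in place of a lower RNA level, was not tested.

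**Figure D3:**
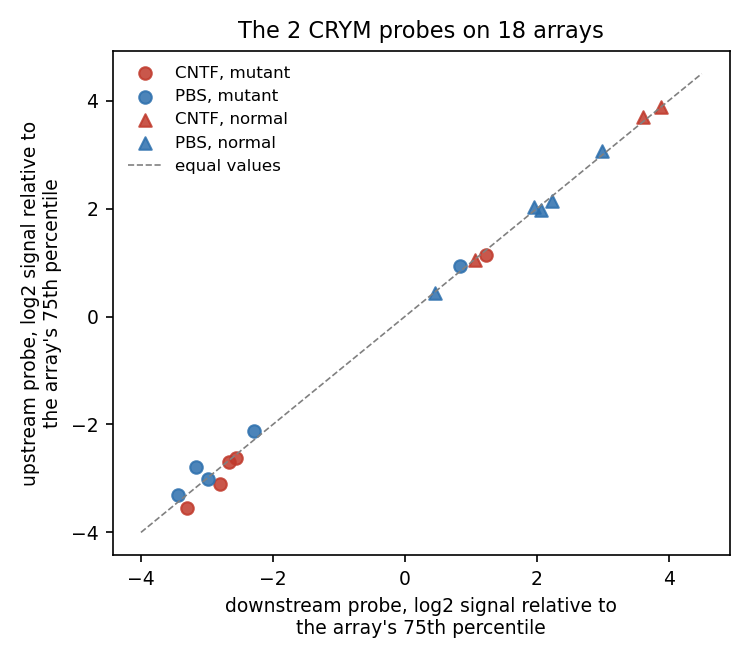
Upstream against downstream CRYM probe, log2 signal relative to each array's 75th percentile, on the 18 arrays where both were measured; circles are mutant and triangles normal dogs, red CNTF and blue PBS eyes, and the dashed line marks equal values. All points lie within -0.32 to 0.37 of that line.

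CRYM was lower in mutant than in normal dogs on average in both kinds of eye. In CNTF eyes the downstream probe averaged -2.02 ± 1.84 in mutant and 3.11 ± 1.16 in normal dogs (SD, n = 5 each), a difference of -5.13 ± 0.83 (SE), or 35.1-fold. In PBS eyes it averaged -2.21 ± 1.76 in mutant and 1.94 ± 0.92 in normal dogs (SD, n = 5 each), a difference of -4.15 ± 0.75 (SE), or 17.7-fold. On the upstream probe these differences were -5.04 ± 1.08, with 3 normal dogs measured, and -3.99 ± 0.75. These contrasts are taken to have chosen the gene, so the sizes are a description. By size the downstream probe stood at place 3 of 29360 probes in CNTF eyes and place 4 of 29433 in PBS eyes, and the upstream probe followed at places 4 and 5.

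The mean difference does not describe every dog. Without mutant dog 5 it was -5.94 in CNTF eyes and -4.91 in PBS eyes, and without normal dog 2 it was -5.65 and -4.52. With a background correction of the normexp type, which pulls dim signals together, it was -4.32 and -3.29. Within slide 4, which held CNTF eyes of 1 mutant and 3 normal dogs, the downstream probe differed by -6.20. Within slide 2, which held PBS eyes of 3 mutant dogs and 1 normal dog, it differed by -4.87. Neither of these slides held mutant dog 5 or normal dog 2.

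CRYM was higher in CNTF than in PBS eyes of normal dogs. The downstream probe was higher in the CNTF eye than in the PBS eye of 5 of 5 normal dogs, by 0.60 to 1.59. The mean change was 1.17 ± 0.20 (SE), or 2.25-fold, with an adjusted p of 0.000858 by limma with the dog as a block. With no block for the dog it was no longer a call (limma adjusted p = 0.271), so the call rests on the pairing of eyes. The upstream probe rose by 1.05 ± 0.34 (SE) in the 3 normal dogs with both eyes measured, with an adjusted p of 0.0295 by limma. The CNTF eyes of normal dogs also enter a genotype contrast taken to have chosen the gene. The p-values of this change thus hold only if that choice did not favour high values in those eyes. Across the array 51.2% of probes were called in this comparison, 23.6% higher and 27.6% lower, so a rise was common among genes. CRYM stood at place 2558 of 29336 by size. No slide held a CNTF eye and a PBS eye of normal dogs, and with slide in place of dog as a block the change was -1.09 ± 2.16 (SE), so that treatment and slide are poorly separated for this gene.

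In mutant dogs no change of CRYM with CNTF was called. The downstream probe was higher in the CNTF eye of 3 of 5 mutant dogs, the changes running from -0.51 to 0.88. The mean was 0.19 ± 0.20 (SE, limma adjusted p = 0.516), and on the upstream probe it was -0.11 ± 0.26 (SE, limma adjusted p = 0.796). In this comparison 28.9% of all probes were called, 11.6% higher and 17.3% lower. The difference between the CNTF changes, mutant minus normal, was -0.98 ± 0.28 (SE) on the downstream probe and -1.16 ± 0.43 (SE) on the upstream probe. It is also the difference of the genotype contrasts in CNTF and PBS eyes, taken to have chosen the gene, so the size is a description. For such a difference limma called 0 of 29336 probes, although 10168 had an unadjusted p under 0.05. The CNTF change of CRYM was thus not shown to differ between genotypes.

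Markers of most retinal cell types were called with CNTF, but so were 28.9% of all probes in mutant dogs and 51.2% in normal dogs. In normal dogs the rod and retinal pigment epithelium lists had smaller shares called than all probes. In lists this short, counts near the share of all probes say nothing particular about a cell type. Of 7 cone markers 6 fell in mutant and 7 in normal dogs, and their summed linear level ran from 23.5 to 39.4 in CNTF mutant against 81.7 to 108.2 in PBS mutant eyes, and from 25.4 to 36.7 in CNTF normal against 86.7 to 117.1 in PBS normal eyes. All 5 microglia markers rose in both genotypes, with sums of 16.2 to 27.7 in CNTF mutant against 2.03 to 3.47 in PBS mutant eyes, and of 15.4 to 24.7 in CNTF normal (4 arrays with every marker) against 1.30 to 2.17 in PBS normal eyes. Of the neuron lists, 4 of 6 rod, 3 of 5 bipolar and 3 of 4 amacrine markers fell in mutant dogs. In normal dogs 1 rod marker rose and 1 fell of 6, while 3 of 5 bipolar and 3 of 4 amacrine markers fell. Of 4 ganglion cell markers 2 rose and 1 fell in mutant dogs, and 2 rose and 2 fell in normal dogs. Of 4 Müller glia markers 1 rose and 2 fell in mutant dogs, and 2 rose and 1 fell in normal dogs. Of 6 markers of the retinal pigment epithelium 2 fell in each genotype. The part of these cells in the CRYM change was not tested. By genotype no marker of any list was called, with 0.00681% of all probes called in CNTF eyes and 0.0272% in PBS eyes, shares at which no call is expected in such short lists. The lens list, relevant to a crystallin, had 4 of 6 markers measured, with sums of 1.63 to 8.44 in CNTF mutant, 2.88 to 3.52 in PBS mutant, 2.03 to 2.44 in CNTF normal and 3.37 to 3.91 in PBS normal eyes. With CNTF, 2 of these 4 lens markers fell in mutant dogs and 1 fell in normal dogs. In mutant dog 5 the lens sum was 2.48 in the CNTF eye and 3.52 in the PBS eye, the highest of the PBS mutant eyes. In normal dog 2 the lens sum was 2.27 in the CNTF eye and 3.55 in the PBS eye, inside the ranges of its groups. Among mutant dogs, dog 5 had the lowest rod sum in both eyes, 298 in a range of 298 to 520.0 in CNTF and 503 in a range of 503 to 877 in PBS eyes (4 arrays). It also had the lowest bipolar sum in both eyes (10.6 and 14.1), the highest level of the 1 horizontal cell marker in both (0.711 and 0.944), the lowest cone sum in CNTF eyes (23.5) and the highest ganglion cell sum in PBS eyes (25.6). Among normal dogs, dog 2 had the lowest ganglion cell sum (40.7) and Müller glia sum (165) and the highest level of the horizontal cell marker (0.755) in CNTF eyes, with 4 arrays each. Some dog is lowest and another highest in every sum, so such extremes can fall to any dog. Both dogs lay inside their group's range for amacrine, retinal pigment epithelium and microglia sums in both eyes. Mutant dog 5 also lay inside it for the cone sum in PBS eyes (84.8) and the ganglion cell sum in CNTF eyes (39.8). The part of these cells in the CRYM levels of those dogs was not tested.

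Of the 8 nearest genes with a measured probe, 4 on each side of CRYM, ANKS4B had the widest range between dogs, though its signal was not above background in most mutant eyes. ANKS4B encodes a scaffold protein of the microvilli of epithelial brush borders. Its probe lies on the minus strand at chr6:27237699-27237758 in canFam2, 5847 bases after the downstream CRYM probe. In mutant dogs 1 to 5 it read -5.40, -5.70, -6.82, -6.68 and -2.55 in CNTF eyes and -2.51, -6.33, -6.17, -6.73 and -2.54 in PBS eyes. In normal dogs 1 to 5 it read -1.52, -2.31, -1.41, -1.30 and -1.61 in CNTF eyes and -1.73, -2.08, -1.74, -1.51 and -1.91 in PBS eyes. Mutant dogs 2, 3 and 4 were low in both eyes, mutant dog 5 was high in both, and the eyes of mutant dog 1 disagreed. The probe was above background on 1 CNTF mutant and 2 PBS mutant arrays, those of mutant dog 5 and the PBS eye of mutant dog 1, and on all normal arrays. It passed the filter on dim signal only through the normal dogs, so a difference was built into its being tested, and values under background have no order and give no size. The difference by genotype was not called in CNTF eyes (limma adjusted p = 0.233) or in PBS eyes (limma adjusted p = 0.0952).

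The other 7 neighbours varied less. ZP2, which encodes a glycoprotein of the egg coat and lies 38097 bases after the downstream probe, differed by -0.94 ± 0.18 (SE) in CNTF eyes and -0.08 ± 0.14 (SE) in PBS eyes, with limma adjusted p of 0.291 and 0.661. It ran over 1.10 between the lowest and the highest dog mean, against 6.67 for CRYM. UQCRC2, a subunit of respiratory complex III and the nearest measured gene on the other side, differed by -0.03 ± 0.11 (SE) in CNTF eyes and 0.08 ± 0.10 (SE) in PBS eyes. MOSMO, CDR2, METTL9, LYRM1 and DCUN1D3 also had no call by genotype. DCUN1D3 rose with CNTF by 1.60 ± 0.11 (SE) in mutant dogs and 1.59 ± 0.11 (SE) in normal dogs.

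**Figure D4:**
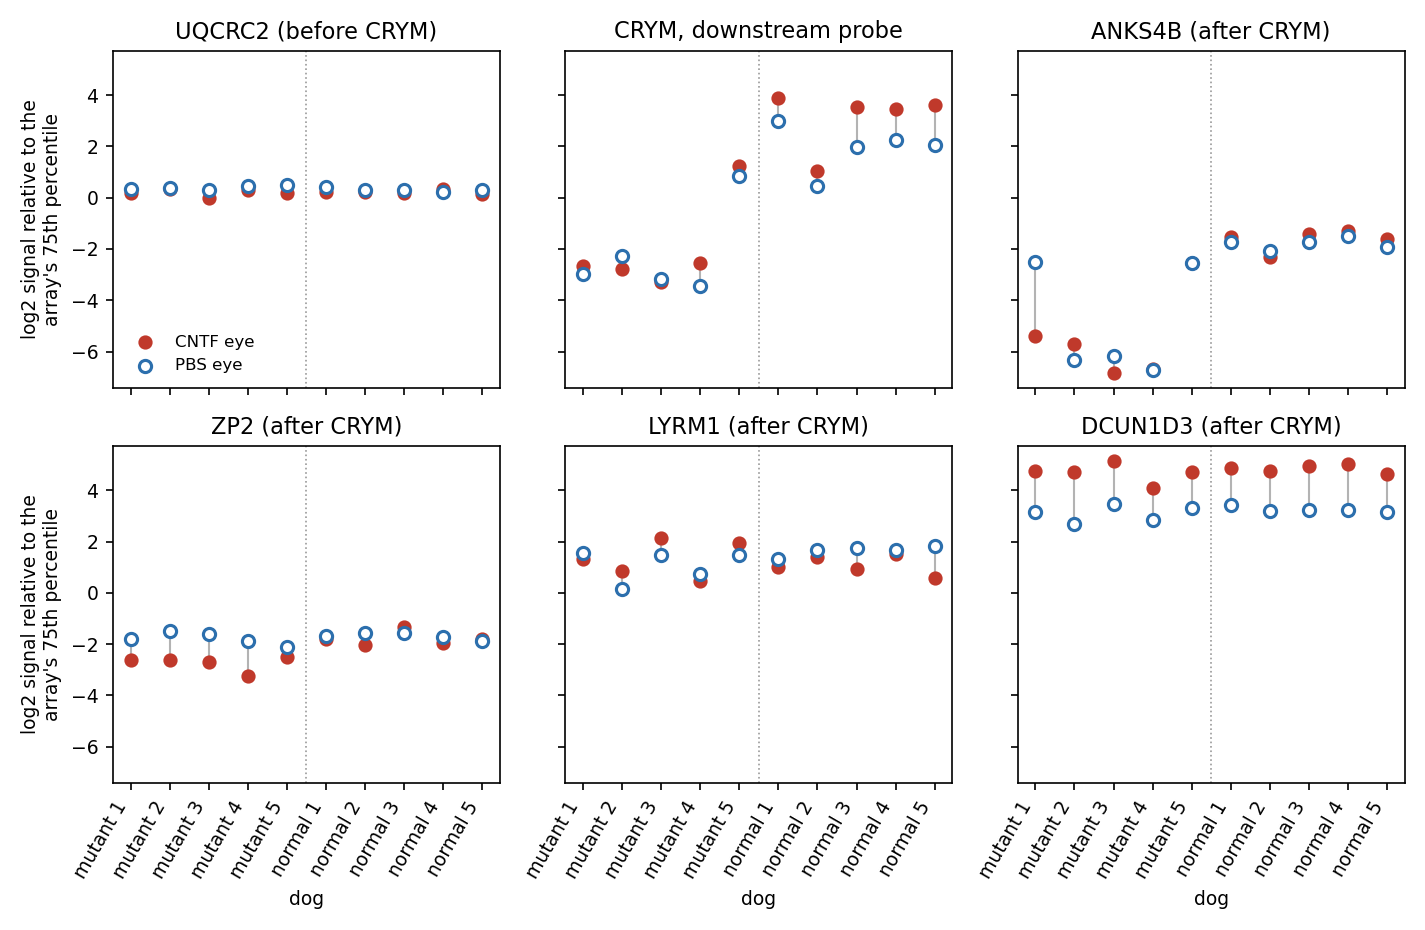
Log2 signal relative to each array's 75th percentile by dog for CRYM (downstream probe) and 5 neighbouring genes, CNTF eyes filled and PBS eyes open. ANKS4B is low, below -5, in both eyes of mutant dogs 2, 3 and 4, while ZP2 runs over 1.10 and UQCRC2 over 0.23 between dog means.

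Likeness to CRYM was ranked by Pearson r over 15615 named probes, as a description, since arrays share dogs, genotype and slides. Over the 20 arrays the highest were TKTL1, a transketolase-like gene, at 0.906, ANKS4B at 0.896, ROPN1L, a ropporin-like gene, at 0.883, NDUFS1, a subunit of respiratory complex I, at 0.846 and UBFD1 at 0.793. The lowest were ATP4A, the alpha subunit of the gastric proton pump, at -0.921, GCKR, the glucokinase regulator, at -0.831, the connexin gene GJB5 at -0.830, PNPLA4 at -0.789 and FASTKD1 at -0.780. Most of these genes varied far less than CRYM: between dog means NDUFS1 ran over 0.71, UBFD1 over 0.82 and GCKR over 1.11. TKTL1 and PNPLA4 lie on the X chromosome, and sex differed in part between the genotypes. ANKS4B and UBFD1 lie on chromosome 6, as CRYM does. TKTL1, like ANKS4B, was above background in few mutant eyes, on 1 of 5 CNTF mutant and 1 of 5 PBS mutant arrays, against all 10 normal-dog arrays, so its range and its r rest partly on signal under background. In mutant dog 5 TKTL1 read -2.74 in the CNTF eye and -2.44 in the PBS eye, and in normal dog 2 it read 0.10 and 0.03, so these dogs lay apart for TKTL1.

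ATP4A ran the other way. It averaged -0.10 in CNTF mutant and 0.25 in PBS mutant eyes, against -1.97 in CNTF normal and -1.47 in PBS normal eyes. In mutant dog 5 it read -1.03 in the CNTF eye and -1.43 in the PBS eye, and in normal dog 2 -1.72 and -1.35. Over the 10 dog means the highest were NDUFA4L2 at 0.948, ODF2L at 0.937, ANKS4B at 0.934, LAMP2 at 0.931 and BPIL2 at 0.922, and the lowest GJB5 at -0.939, ATP4A at -0.935, STAU2 at -0.931, KPNA6 at -0.922 and GCKR at -0.918. Some of these varied little between dog means: NDUFA4L2 ran over 0.89, LAMP2 over 0.79, KPNA6 over 0.77 and STAU2 over 0.53. NDUFA4L2 was lower in CNTF than in PBS eyes, which averaging the eyes hides. It averaged -1.26 in CNTF mutant against 1.63 in PBS mutant eyes, and -0.66 in CNTF normal against 2.13 in PBS normal eyes. LAMP2 was above background on 1 CNTF mutant, 1 PBS mutant, 1 CNTF normal and 5 PBS normal arrays, and BPIL2 on 0, 1, 0 and 5 of them, so their r rests mostly on signal under background. On that measure 10 probes passed 0.9 and 6 lay below -0.9, such probes included. ANKS4B, ATP4A, GCKR and GJB5 were on both lists. Of the others, LAMP2 lies on the X chromosome and ODF2L on chromosome 6.

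Genes of the thyroid hormone pathway were taken from 5 lists, and 21 of them were measured well enough to test. In mutant dogs CNTF raised 2 and lowered 8 of the 21, or 47.6%, against 28.9% of all probes called, with a median change of -0.26 against -0.09 over all probes. In normal dogs it raised 2 and lowered 7, or 42.9%, against 51.2% of all probes, with a median of -0.20 against -0.09. Both counts include DIO3 among the raised genes. DIO3 passed the filter on dim signal only through the CNTF eyes, so a difference was built into its being tested. By genotype 0 of 21 were called in CNTF eyes, where 0.00681% of all probes were called by limma, and 0 of 21 in PBS eyes, where 0.0272% were, with 1647 and 10188 probes at an unadjusted p under 0.05. At those shares no call is expected in a list of this size, so the counts say nothing particular about the pathway. Without normal dog 1, 4 of the 21 were called in PBS eyes, when 6308 of 29398 probes were called over the array, a similar share.

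Of the transport list, 1 of 7 genes was tested, the amino acid carrier SLC7A5, and it was not called. TTR, the hormone carrier transthyretin, was not analysed here. Both deiodinases that could be tested of 3 were called with CNTF in mutant dogs, where 28.9% of all probes were. DIO3, the enzyme that inactivates T3, read -2.36 to -0.07 in CNTF mutant against -6.06 to -4.28 in PBS mutant eyes, and -2.13 to -0.40 in CNTF normal against -6.59 to -4.75 in PBS normal eyes. It was not well above background on any PBS array. It passed the filter on dim signal only through the CNTF eyes, so a difference was built into its being tested. Its PBS values under background have no order and give no size. Against the dimmest signal above background on each PBS array, it was at least 7.98-fold higher in mutant dogs and at least 8.93-fold in normal dogs. DIO2, which makes T3 from T4, rose by 1.00 ± 0.17 (SE, limma adjusted p = 0.00123) in mutant dogs, while in normal dogs the change was 0.33 ± 0.17 (SE, limma adjusted p = 0.122). The difference between these changes was 0.67 ± 0.24 (SE, limma adjusted p = 0.106), not a call.

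Among the 5 receptor genes, 2 fell with CNTF in mutant dogs, and 2 fell and 1 rose in normal dogs. THRB fell by 0.63 ± 0.13 (SE, limma adjusted p = 0.00369) in mutant dogs, where it read -3.67 to -2.60 in CNTF and -3.15 to -2.23 in PBS eyes. It fell by 1.14 ± 0.13 (SE, limma adjusted p = 5.77e-05) in normal dogs, where it read -3.46 to -3.05 in CNTF and -2.39 to -1.94 in PBS eyes, with no overlap. For THRA, the other T3 receptor gene, the difference was -0.21 in mutant dogs (limma adjusted p = 0.254), and it rose by 0.40 ± 0.13 (SE, limma adjusted p = 0.0252) in normal dogs. RXRG, a retinoid X receptor gene of cones, fell by 0.90 ± 0.15 (SE, limma adjusted p = 0.00112) in mutant and by 0.41 ± 0.15 (SE, limma adjusted p = 0.0406) in normal dogs. Of the 6 coregulators tested, 2 fell in each genotype, or 33.3%, against 28.9% of all probes in mutant and 51.2% in normal dogs. They were NCOA2 in both, with NCOA1 in mutant and TBL1XR1 in normal dogs, as the plot of pathway genes shows.

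Of 7 target genes tested 4 fell in mutant and 3 in normal dogs, or 57.1% and 42.9%, against 28.9% and 51.2% of all probes. The largest falls were those of the cone opsins, which are also cone markers. OPN1SW, the short-wave opsin, fell by 2.05 ± 0.24 (SE, limma adjusted p = 0.0001) in mutant dogs, reading -1.81 to -0.21 in CNTF against 0.85 to 1.62 in PBS eyes. It fell by 2.23 ± 0.24 (SE, limma adjusted p = 4.71e-05) in normal dogs, reading -0.98 to -0.27 in CNTF against 1.34 to 1.81 in PBS eyes. OPN1LW, the long-wave opsin, fell by 1.20 ± 0.16 (SE, limma adjusted p = 0.000207) in mutant and by 0.45 ± 0.16 (SE, limma adjusted p = 0.0336) in normal dogs. NRGN and PCP2 fell in mutant dogs, and ME1 fell in normal dogs. The cone marker sums given above fell alongside these genes, and their part in the falls was not tested.

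**Figure D5:**
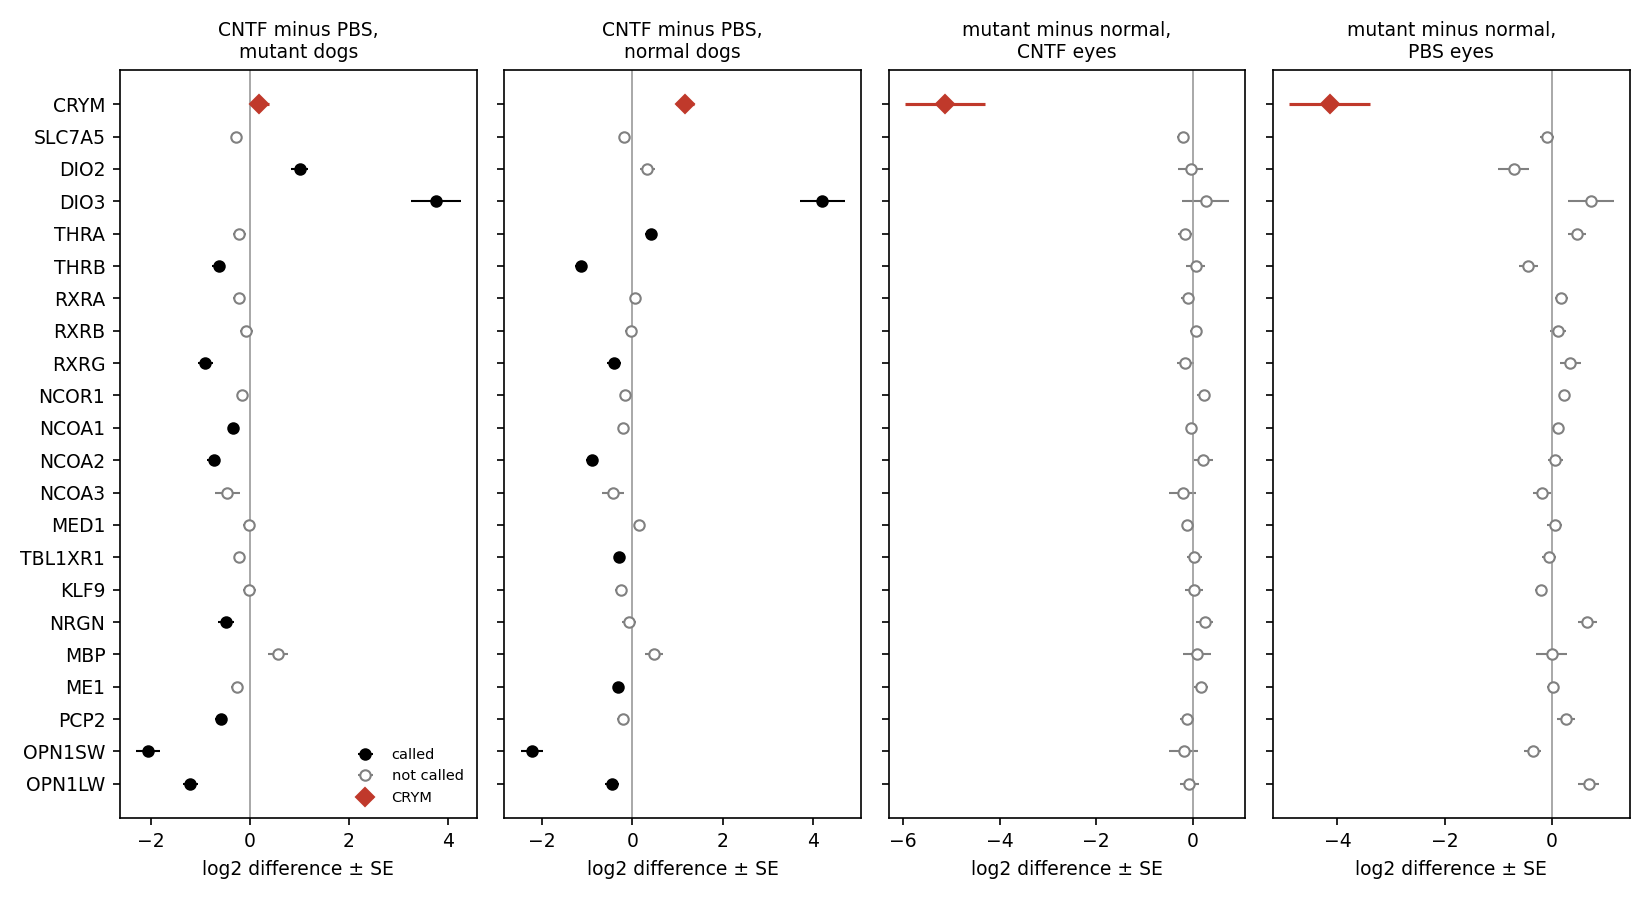
Log2 differences with SE for CRYM (red diamond, downstream probe) and the 21 tested genes of the thyroid hormone lists in 4 comparisons; black points passed an adjusted p of 0.05, open points did not, and horizontal axes differ between panels. CRYM lies at -5.13 and -4.15 by genotype, where none of the 21 genes was called. The CNTF points of DIO3 rest on PBS values under background and give no size.

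CRYM was also set beside enzymes of lysine and ketimine breakdown and beside the other crystallins. Of 5 tested lysine enzymes 0 were called with CNTF in mutant dogs, against 28.9% of all probes, and 1 in normal dogs, against 51.2%. That 1, the glutaryl-CoA dehydrogenase gene GCDH, rose by 0.74 ± 0.14 (SE, limma adjusted p = 0.00174). Of 13 other crystallins tested for CNTF, 2 rose and 1 fell in mutant dogs, and 2 rose and 2 fell in normal dogs, or 23.1% and 30.8% called, below those shares of all probes. CRYGA, a gamma crystallin gene, read -2.18 to -0.99 in CNTF mutant against -2.23 to -1.69 in PBS mutant eyes and rose by 0.53 ± 0.18 (SE, limma adjusted p = 0.0481). In normal dogs it read -0.63 to 0.15 in CNTF against -2.13 to -1.53 in PBS eyes and rose by 1.43 ± 0.18 (SE, limma adjusted p = 0.000132). By genotype 0 of 13 crystallins were called in CNTF eyes, against 0.00681% of all probes, and 0 of 14 in PBS eyes, against 0.0272%, and 0 of 5 lysine enzymes in each. At such shares no call is expected in either list.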

How the data were processed

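The array files hold intensity per spot, which the authors obtained with Agilent Feature Extraction 9.5.3.1, per the file headers, as background-subtracted, detrended processed signal not scaled between arrays. Per the labels' protocols, 100 ng of RNA with an RIN over 8 was labelled with Cy3. The deposited matrix holds log2 values, and the submitters' processing notes name Partek 6.4; it was used only as an alternative, and its columns share nearly the same distribution. Probe positions are on canFam2, per the file headers. There are no read counts, and the number of arrays limits the precision.

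The 1417 control spots per array and outlier spots were left out. Log2 processed signal minus each array's 75th percentile was used, the percentile lying at 291 to 592 intensity units, and 52.2 to 71.9% of probes per array were above background. Any group with 4 or more of its 5 arrays well above background kept a probe, which left 29545, tested where each group had at least 3 measured arrays. CRYM is represented by the downstream probe, since the upstream probe lacks 2 arrays. A listed gene is represented by its kept probe with the highest mean signal. Names came from the UU_Cfam_GSD_1.0 gene table.

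Tests used limma 3.58.1 in R 4.3.3, two-sided, with Benjamini-Hochberg adjustment over all tested probes and a call at 0.05. CNTF changes were fitted on all 20 arrays with the dog as a block, and genotypes within CNTF or PBS eyes on 10 arrays without covariates. The fits were tested on simulated data. Eyes were paired by dog, since the labels give each dog number the same sex, age and genotype in both treatments and describe injection of both eyes. Normal dogs 1, 2, 4 and 5 have the same sex, age and genotype, as do mutant dogs 2 and 3. A wrong match among those dogs would thus not show in these labels. Deviations of paired arrays correlated over all probes at 0.19 to 0.69 in mutant dogs and at -0.15 to 0.29 in normal dogs. In normal dogs the arrays thus gave little sign of the pairing. The members and lists were chosen with earlier results of these data known. Named were CRYM, up to 4 called list genes per comparison by lowest adjusted p with THRA, THRB, DIO2, DIO3, RXRG, OPN1SW and TTR, the 5 most and least alike genes, and the 4 nearest measured neighbours per side. NCOA1, NCOA2, TBL1XR1, NRGN, PCP2, ME1, GCDH and SLC7A5 were named to account for small counts, after their values were seen. An item that the naming rule also covers is not reported here. Alternatives were normexp correction, quantile scaling, the deposited matrix, no filter on dim probes, slide and dog blocks, each dog left out and the upstream probe. Figures were made in Python 3.11.15 with matplotlib 3.10.9.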

Additional observations from a re-analysis of the deposited data

Results flagged for a closer look

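In 9 of 71 group checks, an eye stood apart from the other 4 of its group, the gap exceeding 0.71 of the group's whole range; chance flags about 1 in 20 groups. For CRYM it was mutant dog 5, highest on the upstream probe at 1.13 in CNTF and 0.938 in PBS eyes (gap 0.804 and 0.721 of the range) and on the downstream probe at 1.23 and 0.836 (0.837 and 0.730). These 4 checks share a dog and overlapping probes. Normal dog 2 was lowest on the downstream probe in CNTF eyes at 1.06 (0.850).

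CRYGA was highest in the CNTF eye of normal dog 1 at 0.153. CDR2 was highest in the CNTF eye of mutant dog 2 at -0.0544, and ZP2 was lowest in the CNTF eye of mutant dog 4 at -3.24. DCUN1D3 was highest at 3.44 in the PBS eye of normal dog 1, the dog on which the genotype counts in PBS eyes depended.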

How the results depend on the processing

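The genotype differences of CRYM kept their direction in all alternatives run. Leaving out each dog gave -5.94 to -4.81 in CNTF eyes and -4.91 to -3.84 in PBS eyes. The CNTF change in normal dogs was 1.07 to 1.32 without a dog and stayed a call with normexp, quantile scaling, the deposited matrix and no dim filter. With slide as a block it was -1.09 in normal and -2.43 in mutant dogs, each ± 2.16 (SE), and the upstream probe gave -0.11 in mutant dogs. No replicate block left the normal value at 1.17, no longer a call (limma adjusted p = 0.271). The pairing rests on the labels, and the call in normal dogs depends on it and on how the gene was chosen. The dog as a random block left the genotype differences at -5.13 and -4.15. Without a dog the mutant change was 0.02 to 0.36 and the difference of the changes -1.16 to -0.81, not a call under any alternative run.

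The number of thyroid hormone genes called with CNTF in mutant dogs, 10 of 21, was 5 with normexp, 0 with slide as a block and 9 to 11 on leaving out a dog. In normal dogs the number, 9 of 21, was 3 with normexp, 2 with slide and 5 to 9 on leaving out a dog, with 5 without normal dog 5. These are counts and do not say which genes. By genotype, leaving out a dog gave 0 in CNTF eyes and 0 to 4 in PBS eyes. The 4 came without normal dog 1, when 6308 of 29398 probes were called over the array, a similar share. Normexp moved the median CNTF change of all probes to 0.17 in mutant and 0.09 in normal dogs, against -0.09 in each, and called 3298 and 5760 probes against 8473 and 15019. Slide as a block called 814 and 1154. The cause was not tested. Dim signal limits the size of the CRYM difference in mutant dogs 1 to 4.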
